A study of Mus musculus with 5 samples.

Results

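The 10 genes described here make or load the classical major histocompatibility complex (MHC) class I molecule: H2-K1 and H2-D1, B2m, Nlrc5, Tap1, Tap2, Tapbp, Psmb8, Psmb9 and Psmb10. They were chosen by name, with earlier results of these data known, and all 10 were found among the 32285 genes of the deposited single-nucleus matrices. Their levels were followed in each cell class, and compared between mice with and without an activating Cgas allele. Both genotypes carried the tamoxifen-inducible Tmem119-creERT2 driver, whose promoter is that of the microglial gene Tmem119. The R241E group (2 libraries, 1 mouse each) was titled cGaswt/R241E, and the WT group (3 libraries, 1 mouse each) was titled cGaswt/wt. The R241E protein is a nucleosome-binding-defective form of cGAS, the cytosolic DNA sensor that signals through STING. The labels give the source as hippocampus, and the nuclei were sorted as DAPI+ NeuN- Olig2- to enrich for microglia after tamoxifen in young adult mice. Reads of Cgas were not split by allele, so genotypes rest on the labels. The source is in doubt, since the study's methods speak of brain and nuclei with pituitary endocrine and tanycyte markers were present, 51 and 133 in R241E mouse 1 against at most 1 and 12 to 19 in each other library.

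A class I molecule is a polymorphic heavy chain, here H2-K or H2-D, paired with β2-microglobulin (B2m) and a short peptide. The peptides are cut by the proteasome, in which Psmb8, Psmb9 and Psmb10 replace the constitutive catalytic subunits to form the immunoproteasome. The TAP1–TAP2 transporter carries them into the endoplasmic reticulum, and tapasin (Tapbp) bridges the transporter to the empty heavy chain. NLRC5 is the transactivator of class I genes, and interferons induce most of the pathway. Under resting conditions neurons and oligodendrocytes are known for very little class I.

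Of the 10 genes, 7 lie on chromosome 17 within the mouse MHC region and its flank. In RefSeq coordinates of GRCm38.p6 they run from Tapbp (chr17:33919478-33929290) through H2-K1 (chr17:33996012-34000619), Psmb9 (chr17:34182030-34187330), Tap1 (chr17:34187556-34197225), Psmb8 (chr17:34198195-34201454) and Tap2 (chr17:34204479-34216321) to H2-D1 (chr17:35263094-35267497). Psmb9 and Tap1 are transcribed away from each other, and 225 bases separate them. B2m lies on chromosome 2 (chr2:122147687-122153082), and Nlrc5 (chr8:94434335-94527272) and Psmb10 (chr8:105935728-105938392) lie on chromosome 8. The B2m interval overlaps that of Patl2, the Tapbp interval overlaps Gm19412 and the Nlrc5 interval overlaps 9330175E14Rik, Gm51584 and Mir7072. H2-K1 and H2-D1 are close relatives of each other and of other class I heavy chains, so the split of reads between such copies is uncertain.

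The stretches just upstream of the start sites of H2-K1, H2-D1 and B2m, and the stretch shared by Psmb9 and Tap1, are shown because these genes moved together in microglia. Each is written 5′ to 3′ on the strand of the gene named first (RefSeq, GRCm38.p6), and capitals mark the interferon response element GAANNGAAA, or the same with a further A before the spacer, on either strand.
H2-K1, chr17:34000334-34000583, minus strand: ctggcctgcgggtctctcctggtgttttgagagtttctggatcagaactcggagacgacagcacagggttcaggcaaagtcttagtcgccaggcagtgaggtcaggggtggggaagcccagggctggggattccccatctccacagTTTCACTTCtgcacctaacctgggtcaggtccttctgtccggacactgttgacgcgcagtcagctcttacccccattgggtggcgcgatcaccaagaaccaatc
H2-D1, chr17:35262844-35263093, plus strand: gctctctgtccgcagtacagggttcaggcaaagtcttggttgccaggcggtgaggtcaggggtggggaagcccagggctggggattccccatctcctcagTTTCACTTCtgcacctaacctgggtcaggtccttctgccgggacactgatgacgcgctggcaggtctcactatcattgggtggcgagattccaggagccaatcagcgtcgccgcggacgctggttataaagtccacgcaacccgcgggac
B2m, chr2:122147437-122147686, plus strand: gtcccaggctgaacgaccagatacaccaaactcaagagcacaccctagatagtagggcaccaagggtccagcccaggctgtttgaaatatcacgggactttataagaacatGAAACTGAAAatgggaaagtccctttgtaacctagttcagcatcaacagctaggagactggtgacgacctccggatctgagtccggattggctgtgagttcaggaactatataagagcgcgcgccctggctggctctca
Tap1 and Psmb9, chr17:34187331-34187555, plus strand: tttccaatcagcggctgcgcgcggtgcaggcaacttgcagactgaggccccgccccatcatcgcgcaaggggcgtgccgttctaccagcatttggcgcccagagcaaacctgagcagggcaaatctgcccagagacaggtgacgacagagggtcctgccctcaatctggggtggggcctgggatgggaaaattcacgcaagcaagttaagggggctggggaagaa
H2-K1 and H2-D1 held the same letters, TTTCACTTC, 96 to 104 and 142 to 150 bases before their annotated starts. RefSeq gives H2-K1 a second start, from which the match lies 82 to 90 bases upstream. Both starts of H2-K1, and the window shown, lie inside the interval given above for the gene, whose 5′ end on this strand is at 34000619. B2m held GAAACTGAAA 130 to 139 bases before its start. Without gaps, the windows of H2-K1 and H2-D1 shared 180 of 254 aligned bases (70.9%). Over the 8 genes with a RefSeq window of 300 bases (250 before and 50 after the start), 3 held the element with either spacing, against 10.4% of all 32851 windows. The STAT element TTCNNNGAA was in 1 of the 8 windows, that of Psmb8, and in 8.3% of all windows. The motifs were chosen after the windows had been read, and members were counted by gene but the background by window, so these shares are a description. A match of letters describes the window and is no evidence of binding. No window of Nlrc5 or Tap2 was used here.

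Of 9748 deposited nuclei 9505 were kept, and they fell into 26 clusters that were named as 12 cell classes from marker genes. Totals were 4183709 to 10130667 UMIs per library (unique molecular identifiers, 1 per captured RNA molecule). A class was tested where every library held at least 20 of its nuclei, which left 7 classes. They were microglia (5378 nuclei), neurons (747), oligodendrocytes (651), mural cells (607), astrocytes (571), fibroblasts (509) and border-associated macrophages (343). Nuclei of a class were summed per library, so that n is 2 R241E against 3 WT mice, and levels are given as a gene's UMIs per 1000000 UMIs of that class and library (CPM). Fold changes are log2 values of R241E over WT from edgeR's quasi-likelihood test. A gene was called where its p-value, adjusted over all genes tested in that class, was under 0.05. Class I-rich lymphocyte nuclei were more numerous in the R241E libraries (120 and 35, against 3, 7 and 28), and 13 barcodes occurred in more than 1 library. Microglia of the R241E mice lay mostly in other clusters than those of the WT mice.

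In microglia all 10 genes were higher in R241E mice. The increases were largest for the transactivator Nlrc5 and the heavy chains H2-D1 and H2-K1, intermediate for B2m and Tap1, and smallest for Psmb10 and Tapbp. Of all 12727 genes tested, 6.04% were called higher and 3.25% lower. The median log2 fold change was 1.72 over the 10 genes and -0.0046 over all genes.

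H2-D1, a classical heavy chain, stood at 583 and 588 CPM in the R241E mice and at 40.0, 67.8 and 69.9 CPM in the WT mice. Its log2 fold change was 3.26 (SE 0.15 and, from edgeR, an adjusted p = 8.55e-10). The R241E values were nearly equal, and both lay far above the highest WT value. H2-K1, the other classical heavy chain, had 505 and 389 CPM against 40.0, 47.0 and 71.4 CPM (log2 fold change 3.06 with SE 0.17, adjusted p = 5.68e-09 from edgeR). B2m, the invariant light chain, had 407 and 569 CPM against 75.6, 103 and 138 CPM (2.17, SE 0.17, edgeR adjusted p = 5.39e-07). The groups did not overlap for either gene, and R241E mouse 1 was the higher for H2-K1 and the lower for B2m. Nlrc5 had 218 and 210 CPM against 14.15, 14.99 and 15.29 CPM, a 14.4-fold ratio of the means. Its log2 fold change of 3.82 (SE 0.12) had the smallest adjusted p of the 10 genes (edgeR, 4.16e-11).

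Among the genes of peptide transport, Tap1 had 67.5 and 66.4 CPM against 15.8, 17.5 and 19.5 CPM, and rose by a log2 fold change of 1.90 (SE 0.15 and, from edgeR, an adjusted p = 5.75e-07). Its partner Tap2 had 64.7 and 60.2 CPM against 31.5, 31.8 and 36.6 CPM, with a log2 fold change of 0.90 (SE 0.14 and, from edgeR, an adjusted p = 0.000599). The groups overlapped for neither transporter gene. Tapbp had 44.6 and 51.9 CPM against 27.9, 27.9 and 34.8 CPM (0.64, SE 0.16, edgeR adjusted p = 0.0195). Of the immunoproteasome subunits, Psmb9 had 78.5 and 76.8 CPM against 29.5, 24.0 and 26.7 CPM (1.54, SE 0.14, edgeR adjusted p = 2.75e-06). Psmb8 had 86.7 and 89.9 CPM against 21.8, 36.4 and 47.7 CPM (1.27, SE 0.20, edgeR adjusted p = 0.000631). Psmb10 had 27.3 and 23.5 CPM against 10.5, 15.7 and 15.3 CPM (0.85, SE 0.22, edgeR adjusted p = 0.0208). No member's groups overlapped, a pattern seen in 20.4% of all genes tested in microglia. The calls of Tapbp and Psmb10 were the less firm. Tapbp was not called with DESeq2 (adjusted p = 0.0766) or when R241E mouse 1, R241E mouse 2, WT mouse 1 or WT mouse 2 was left out (edgeR adjusted p 0.0651 to 0.134), nor Psmb10 with DESeq2 (0.0938), without R241E mouse 1 (0.296) or without WT mouse 1 (0.0621).

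**Figure D1:**
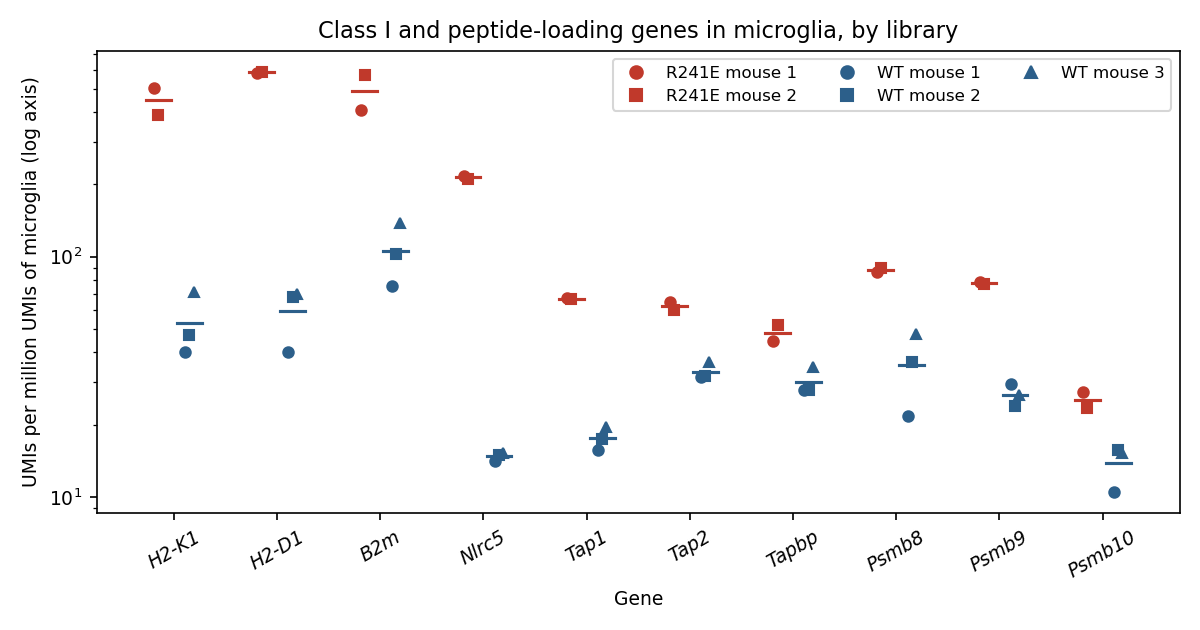
Level of each of the 10 genes in microglia, in CPM on a log axis, with 1 point per library and a bar at the group mean (red, 2 R241E mice; blue, 3 WT mice). Every red point lies above every blue point of its gene, and the gap is widest for Nlrc5 (means 214 and 14.8 CPM) and narrowest for Tapbp (48.2 and 30.2 CPM).

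The share of nuclei with a UMI differed between genotypes likewise. After each microglial nucleus was thinned to 1000 UMIs, H2-D1 was detected in 38.5% of nuclei of R241E mouse 1 (95% Clopper-Pearson interval 35.5 to 41.6%) and 39.0% of R241E mouse 2 (34.6 to 43.4%). In the WT mice it was detected in 3.65% (2.53 to 5.09%), 6.84% (5.60 to 8.27%) and 7.14% (5.84 to 8.62%). The difference of the group means was 32.9 percentage points (two-sided exact permutation p = 0.1, the smallest that 2 against 3 mice can give). For the other members the R241E and WT shares were 38.5% and 30.9% against 3.54%, 5.32% and 7.07% for H2-K1, and 28.9% and 33.3% against 8.42%, 9.19% and 11.8% for B2m. Nlrc5 was detected in 16.3% and 15.3% of nuclei against 1.66%, 1.52% and 1.66%. A nucleus with 3 or more H2-D1 UMIs was found in 5.02% of nuclei in both R241E mice and in none of the 903, 1447 and 1387 thinned WT nuclei, counts of 0 that allow shares of up to 0.332%, 0.207% and 0.216%. At the other end, 32.2% and 31.5% of R241E microglia had no UMI of H2-K1, H2-D1 or B2m, against 85.2%, 80.2% and 77.0% of WT microglia. At this depth such a nucleus is not shown to lack the transcript. Intervals cover counting error only.

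**Figure D2:**
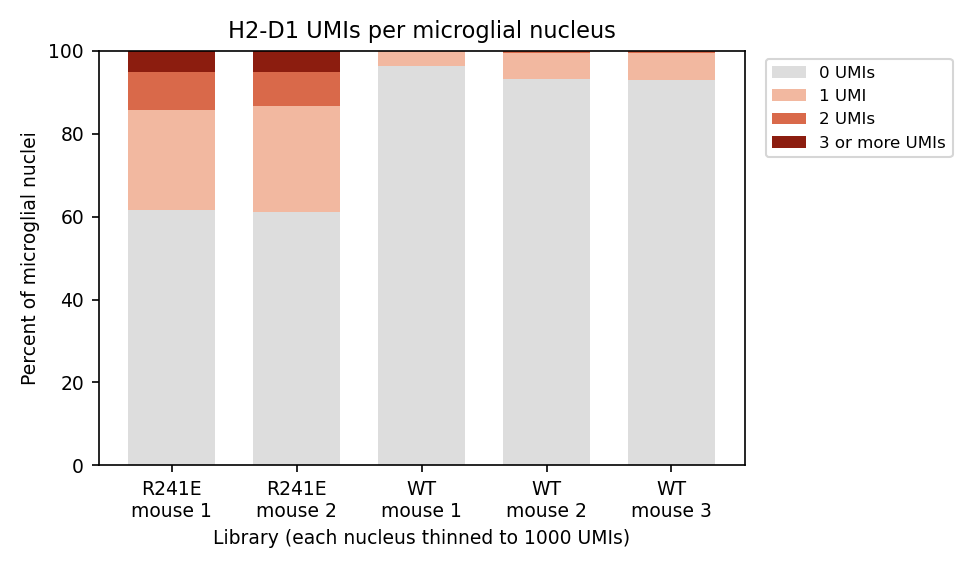
Percent of microglial nuclei with 0, 1, 2 or 3 and more UMIs of H2-D1 in each library, every nucleus thinned to 1000 UMIs. In the R241E libraries 61.5% and 61.0% of nuclei had 0 UMIs, against 92.9 to 96.3% in the WT libraries.

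Levels also differed among the 6 microglial clusters, in which the 2 genotypes were unevenly spread. Cluster 15 (84 nuclei, 97.6% from R241E mice) held the highest levels of 8 members, among them Nlrc5 at 919 CPM and H2-K1 at 721 CPM. The highest B2m level lay in cluster 2 (884 CPM, 372 nuclei, 80.9% R241E), in which Nlrc5 stood at 97.0 CPM and H2-D1 at 934 CPM. The clusters with most WT nuclei, 18 and 19, held H2-D1 at 87.6 and 43.3 CPM. The clusters were drawn from 3000 variable genes, from which the members were not left out. These values also pool the nuclei of all libraries, so they are given as a description. With the members and the interferon list left out of the clustering, 9469 nuclei kept their class and all 10 members stayed called in microglia, whereas B2m lost its call in oligodendrocytes (edgeR adjusted p = 0.0686). They were also all called without the count filter, against 4.24% of all genes.

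The heavy chains were also higher in R241E microglia with no UMI of other interferon-response genes. A list of 27 interferon-response genes, taken from the study and used here without Nlrc5, had no UMI in 179 and 117 thinned R241E microglia and in 643, 1009 and 955 WT microglia. In these nuclei H2-D1 stood at 568 and 593 CPM against 37.9, 63.5 and 67.4 CPM (log2 fold change 3.30 with SE 0.16, adjusted p = 2.51e-15 from edgeR). H2-K1 had 461 and 351 CPM against 39.7, 48.2 and 66.6 CPM (2.97, SE 0.17, edgeR adjusted p = 9.41e-14). Whether these changes differ from those of all microglia was not tested. B2m had 424 and 551 CPM against 78.8, 106 and 144 CPM (2.09, SE 0.17, edgeR adjusted p = 3.72e-10), and Nlrc5 had 120 and 106 CPM against 11.1, 12.6 and 10.8 CPM (3.26, SE 0.25, edgeR adjusted p = 1.06e-10). In all, 7 of the 10 members were called higher, against 2.65% of all genes tested in these nuclei (1.48% without the count filter, with 7 members called again). In 18.5% of all genes the groups did not overlap. Tap1 (1.47), Psmb8 (1.06) and Psmb9 (1.06) were the other members called. Tapbp had 38.7 and 32.2 CPM against 29.8, 30.6 and 41.8 CPM, groups that overlapped (0.07, SE 0.30, edgeR adjusted p = 0.954), and neither Tap2 (0.66) nor Psmb10 (0.77) was called. The number called fell to 4 without R241E mouse 1 (H2-K1, H2-D1, B2m and Nlrc5) and to 5 without R241E mouse 2 or WT mouse 2. Nuclei were picked on the thinned counts, but the levels and tests used all their UMIs, which can include UMIs of the list. They are called microglia without interferon-list UMIs below. A nucleus without a drawn UMI of the list may still carry those transcripts, and the same mice are compared as above.

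Partner genes of the pathway were listed by function and read against the 6.04% of all microglial genes that were called higher. Of 8 loading partners, chaperones and channels such as Calr, Canx and Pdia3, none was called by edgeR in microglia, and 1 had an unadjusted p under 0.05. Pdia3, the oxidoreductase of the loading complex, had 119 and 161 CPM against 104, 110 and 133 CPM (log2 fold change 0.22, SE 0.14). Of 7 proteasome partners 2 were called higher and 5 had an unadjusted p under 0.05, and both genes called encode the interferon-inducible PA28 activator. Psme1 had 180 and 181 CPM against 71.6, 72.9 and 99.9 CPM (1.13, SE 0.13, edgeR adjusted p = 2.60e-05), and Psme2 had 39.3 and 45.7 CPM against 19.4, 19.1 and 25.2 CPM (0.96, SE 0.18, edgeR adjusted p = 0.0022). The constitutive catalytic subunits Psmb5 (0.66), Psmb6 (0.48) and Psmb7 (0.01) were not called. Among the regulators of class I, interferon-signalling genes were called higher. Stat2 had 232 and 182 CPM against 42.9, 40.6 and 39.0 CPM (2.35, SE 0.13, edgeR adjusted p = 5.03e-09). Irf1 rose by 1.32 (SE 0.15) and Irf9 by 1.10 (SE 0.12). The partners of NLRC5 at class I promoters, Rfx5 (0.50), Rfxap (0.55), Rfxank (-0.07), Creb1 (0.13), Nfya (-0.09), Nfyb (-0.50) and Nfyc (-0.15), were not called, nor were the receptor genes Ifnar1 (0.35), Ifnar2 (0.16), Ifngr1 (-0.01) and Ifngr2 (0.11).

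In oligodendrocytes, which make the myelin of the central nervous system, H2-D1, H2-K1, B2m and Nlrc5 were higher in R241E mice. These nuclei remained after a sort for Olig2- nuclei, and whether they represent all oligodendrocytes was not tested. WT levels of the heavy chains and Nlrc5 rested on few UMIs or none, and those of B2m reached 38.6 CPM. H2-D1 stood at 165 CPM in each of the 2 R241E mice (219 and 48 UMIs). In the WT mice it stood at 0, 7.01 and 9.70 CPM (0, 2 and 4 UMIs). The log2 fold change was 4.79 (SE 0.41 and, from edgeR, an adjusted p = 7.71e-08), the largest of any member in any class tested. H2-K1 had 74.0 and 89.4 CPM against 0, 10.5 and 9.70 CPM (3.51, SE 0.48, edgeR adjusted p = 0.000237). B2m had 89.1 and 75.6 CPM against 2.95, 38.6 and 14.6 CPM (2.26, SE 0.42, edgeR adjusted p = 0.00647). Nlrc5 had 48.3 and 55.0 CPM against 0, 7.01 and 0 CPM, and its fold change of 4.55 (SE 0.76, edgeR adjusted p = 0.00187) rests on 2 UMIs in all WT oligodendrocytes together. None of these 4 genes had overlapping groups, a pattern in 9.09% of all genes tested there.

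Only these 4 members passed the count filter in oligodendrocytes, and all 4 passed it through the R241E libraries. Of the genes tested, 0.267% were called higher. Without the filter all 10 members were tested and the same 4 were called higher, against 0.195% of all genes. The other 6 were scarce in both genotypes. Tap1 had 6 and 6 UMIs against 0, 0 and 1, and Psmb8 had 5 and 1 against 1, 1 and 1, or 3.77 and 3.44 CPM against 2.95, 3.51 and 2.43 CPM. For Psmb8 the unfiltered log2 fold change was 0.36 with an SE of 1.29, so a change of the size seen in microglia was not detectable at this depth. Thinned to 1000 UMIs, 17.1% and 16.3% of R241E oligodendrocytes held an H2-D1 UMI, against 0 of 92 (95% Clopper-Pearson interval up to 3.93%), 0 of 65 (up to 5.52%) and 0.84% (up to 4.59%) of WT oligodendrocytes. Without thinning the shares were 44.6% and 34.0% against 0%, 3.08% and 3.25%.

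Markers of other cells were read in oligodendrocytes too. The 10 microglia markers together stood at 272 and 258 CPM in R241E oligodendrocytes and at 183, 477 and 655 CPM in WT oligodendrocytes, or 3.43%, 2.80%, 2.20%, 5.46% and 7.11% of the level in microglia of the same library, with 2 of the 10 markers at 0 in WT mouse 1 and 1 in WT mouse 2. At those shares microglial RNA would carry in H2-D1 at 20.0 and 16.5 CPM in the R241E mice, and the observed level was 8.25 and 10.03 times that. The 10 lymphocyte markers stood at 18.9 and 24.1 CPM against 5.91, 14.0 and 9.70 CPM, which corresponds to 4.49 and 6.81 CPM of H2-D1 in the R241E mice. Without nuclei that held 2 or more microglia-marker UMIs, H2-D1 (4.38), H2-K1 (4.47) and B2m (3.12) were again called higher, and Nlrc5 no longer passed the filter. H2-D1 was higher in R241E mice in each of the 2 oligodendrocyte clusters, at 141 against 6.38 CPM in cluster 4 and 269 against 3.96 CPM in cluster 5, with the nuclei of each genotype pooled. The calls leaned on R241E mouse 1, which gave 276 R241E oligodendrocytes against 94 from R241E mouse 2. Without it only H2-D1 was called (edgeR adjusted p = 0.0615 for H2-K1, 0.682 for B2m and 0.766 for Nlrc5), B2m was not called with DESeq2 (0.155) or with the members and interferon list left out of the clustering (0.0686), and limma-voom called none of the 4 (adjusted p = 0.0863 for H2-D1). Of the regulators, Irf9 (3.08) and Stat2 (1.79) were called higher in oligodendrocytes. None of the 4 loading and 2 proteasome partners tested there was called by edgeR, and 0 had an unadjusted p under 0.05.

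**Figure D3:**
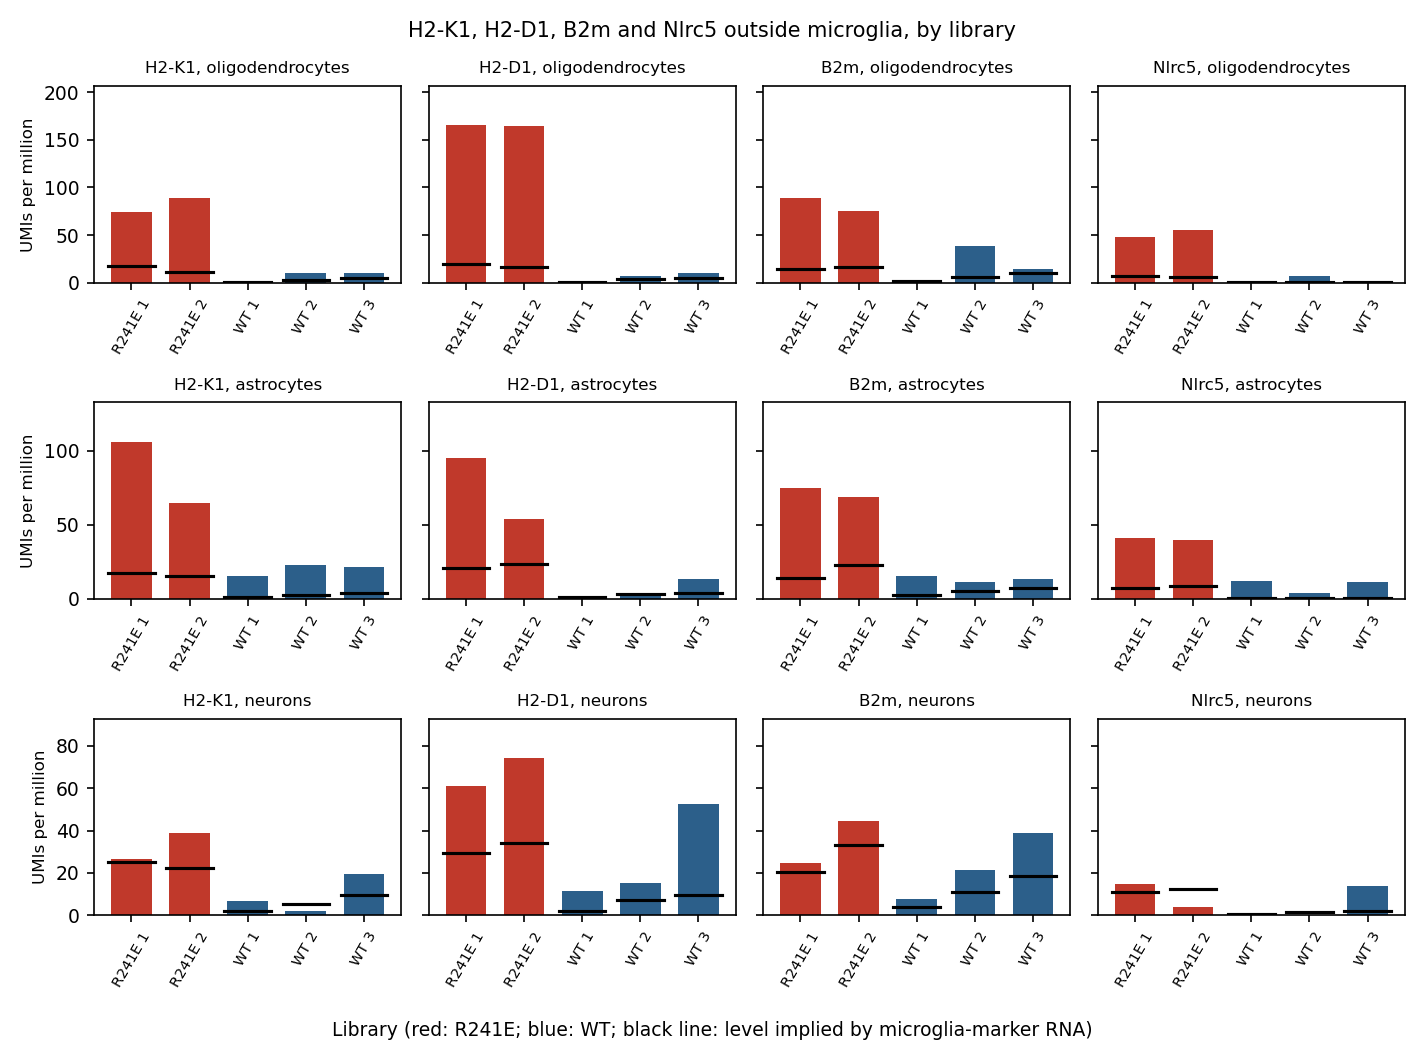
Levels of H2-K1, H2-D1, B2m and Nlrc5 in oligodendrocytes, astrocytes and neurons, in CPM, with 1 bar per library (red, R241E; blue, WT). The black line marks the level that microglial RNA would bring in at the share given by microglia markers. In R241E oligodendrocytes the H2-D1 bars reach 165 CPM over lines at 20.0 and 16.5 CPM, whereas in neurons the B2m bars of 24.7 and 44.6 CPM lie near lines at 20.5 and 33.0 CPM.

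In astrocytes, the homeostatic glia that contact synapses and vessels, both heavy chains and B2m were called higher, against 0.292% of all genes tested there. H2-D1 had 95.2 and 54.1 CPM against 0, 3.85 and 13.7 CPM (log2 fold change 3.44 with SE 0.55, adjusted p = 0.0216 from edgeR). B2m had 74.6 and 68.6 CPM against 15.3, 11.5 and 13.7 CPM (2.43, SE 0.34, edgeR adjusted p = 0.0147), and H2-K1 had 106 and 64.5 CPM against 15.3, 23.1 and 21.5 CPM (2.17, SE 0.35, edgeR adjusted p = 0.0217). The groups of these genes did not overlap, which held for 10.3% of all genes tested in astrocytes. Nlrc5 had 41.1 and 39.5 CPM against 12.2, 3.85 and 11.7 CPM and was not called (2.05, SE 0.45, edgeR adjusted p = 0.0749), but was called without the count filter (edgeR adjusted p = 0.00283, where 0.734% of all genes were called higher), with the replicate block (0.0389) or with the upper limits on nuclei lifted (0.0435). Tap2, the fifth member tested, had 20.6 and 12.5 CPM against 24.4, 23.1 and 15.6 CPM (-0.18, SE 0.51). Of the members tested, H2-D1, B2m and Nlrc5 passed the count filter through the R241E libraries, so their place among the genes tested is not independent of the change. R241E astrocytes lay mainly in cluster 6 and those of WT mice 2 and 3 in cluster 7, and within cluster 6 H2-D1 stood at 84.6 CPM in pooled R241E nuclei and at 0 of 375827 UMIs in pooled WT nuclei. Within cluster 7 it stood at 58.8 CPM (11 UMIs in 46 R241E nuclei) against 11.0 CPM (8 UMIs in 178 WT nuclei). None of the 3 calls was made when R241E mouse 1 (edgeR adjusted p 0.15 to 0.456) or WT mouse 2 (0.175 to 0.244) was left out, only that of H2-D1 when WT mouse 3 was left out (0.0243), and none by limma-voom (0.089 to 0.202). Without nuclei holding microglia-marker UMIs 2 members passed the filter, and H2-K1 (2.66) was called. Microglia markers stood at 3.52% and 4.02% of the microglial level in R241E astrocytes and at 3.82%, 5.15% and 5.43% in WT astrocytes, and H2-D1 was 4.64 and 2.29 times the level that this share would bring to the R241E mice and 0, 1.10 and 3.60 times that in the WT mice. Lymphocyte markers stood at 32.5 and 14.6 CPM against 27.5, 19.2 and 31.2 CPM. Their part in the astrocyte values was not tested.

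Border-associated macrophages, the phagocytes of the meninges and perivascular spaces, had the highest WT levels of the heavy chains and Nlrc5 among the classes tested. H2-D1 had 612 and 590 CPM against 255, 125 and 194 CPM (log2 fold change 1.67 with SE 0.23, adjusted p = 0.000148 from edgeR). H2-K1 had 511 and 472 CPM against 98.0, 175 and 166 CPM (1.75, SE 0.24, edgeR adjusted p = 0.000148). Nlrc5 had 257 and 189 CPM against 131, 50.1 and 57.1 CPM (1.56, SE 0.33, edgeR adjusted p = 0.0161), and B2m had 282 and 346 CPM against 150, 163 and 126 CPM (1.08, SE 0.25, edgeR adjusted p = 0.0324). These 4 of the 6 members tested were called higher, against 0.811% of all genes, and their groups did not overlap, as in 11.6% of all genes. Without the count filter the same number, 4 of 10, was called (0.369% of all genes). Psmb8 (1.32, SE 0.62) and Psmb9 (1.34, SE 0.57) were not called. Nlrc5, Psmb8 and Psmb9 passed the count filter through the R241E libraries. B2m lost its call whichever mouse was left out (edgeR adjusted p 0.0752 to 0.147) and with DESeq2 (0.291). B2m was also not called with the replicate block (0.0532). Nlrc5 lost its call with DESeq2 (0.254) and without R241E mouse 1 (0.281), WT mouse 2 (0.222) or WT mouse 3 (0.102). Microglia markers stood at 34.1% and 39.9% of the microglial level in R241E border-associated macrophages and at 36.0%, 34.9% and 33.9% in those of WT mice, with 1 or 2 of the 10 markers at 0. At that share microglial RNA would bring 199 and 235 CPM of H2-D1 and 139 and 227 CPM of B2m to the R241E mice, against 14.4, 23.6 and 23.7 CPM of H2-D1 and 27.2, 35.9 and 46.8 CPM of B2m to the WT mice. The observed levels were 3.08 and 2.51 times that for H2-D1, and 2.03 and 1.52 times for B2m, in the R241E mice. Lymphocyte markers stood at 64.3 and 118 CPM against 58.8, 43.9 and 62.8 CPM, and the part of either list in these values was not tested.

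In neurons none of the 4 members tested was called by edgeR, limma-voom or DESeq2, and 2 had an unadjusted p under 0.05 with edgeR. The neuronal nuclei remained after a sort for NeuN- nuclei, and whether they represent all neurons was not tested. Of 8905 genes tested edgeR called 1 (0.0112% higher), 757 had an unadjusted p under 0.05 and DESeq2 called 89. H2-D1 had 60.9 and 74.4 CPM against 11.5, 15.04 and 52.5 CPM, values that did not overlap, as in 13.6% of all genes, although WT mouse 3 came close (log2 fold change 1.53 with SE 0.53, adjusted p = 0.462 from edgeR). H2-K1 had 26.3 and 39.0 CPM against 6.88, 2.15 and 19.3 CPM (1.87, SE 0.63, edgeR adjusted p = 0.447). B2m had 24.7 and 44.6 CPM against 7.65, 21.5 and 38.7 CPM, with overlapping groups (0.79, SE 0.60, edgeR adjusted p = 0.799). Tapbp had 21.4 and 13.02 CPM against 3.06, 8.60 and 22.1 CPM (0.89, SE 0.78). Both heavy chains passed the count filter in neurons through the R241E libraries. Without the count filter all 10 members were tested, and H2-D1 (edgeR adjusted p = 0.00582) and H2-K1 (0.0306) were called, against 1.15% of all genes.

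Markers of other cells were also read in neurons. Microglia markers in R241E neurons stood at 5.02% and 5.79% of the microglial level, with 1 of 10 markers at 0. The observed H2-D1 level was 2.08 and 2.18 times what that share would carry in, H2-K1 was 1.04 and 1.73 times and B2m was 1.21 and 1.35 times. In WT neurons the microglia share was 5.32%, 10.8% and 13.5%. Lymphocyte markers stood at 51.0 and 46.5 CPM in R241E neurons and at 34.4, 36.5 and 152 CPM in WT neurons. In WT mouse 3, 1 of these 10 markers was at 0. Those lymphocyte shares correspond to 12.1 and 13.2 CPM of H2-D1 in R241E mice and 8.86, 8.45 and 50.5 CPM in WT mice. The observed H2-D1 level of WT mouse 3 was 52.5 CPM. For H2-K1 they correspond to 11.7 and 13.8 CPM in R241E mice and 4.77, 8.73 and 43.3 CPM in WT mice. Bcl11b on the lymphocyte list is also a neuronal gene. The part of either cell type in the neuronal values was not tested. Neuronal clusters were unevenly shared as well: WT mouse 1 placed 147 of its 282 neurons in cluster 21, in which 7 R241E nuclei lay. In clusters 17 and 20, which held at least 60 nuclei of each genotype, pooled H2-D1 stood at 64.9 against 29.0 CPM and 93.6 against 22.8 CPM. In the other clusters with nuclei of both genotypes it stood at 54.9 against 0 CPM in cluster 8 (59 R241E and 5 WT nuclei), at 0 against 11.9 CPM in cluster 21 (7 and 183) and at 48.5 against 35.7 CPM in cluster 22 (30 and 13).

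In fibroblasts and mural cells, the stromal and contractile cells of meninges and vessels, no member was called by edgeR, limma-voom or DESeq2. With edgeR, 2 of the 4 members tested in fibroblasts and all 3 tested in mural cells had an unadjusted p under 0.05. Fibroblasts had 0 genes called higher of 5809 (0% higher; 413 with an unadjusted p under 0.05; limma-voom called 0 and DESeq2 1 higher), and mural cells 0 of 3862 (0% higher; 174 unadjusted; limma-voom and DESeq2 0). H2-D1 in fibroblasts had 105 and 88.3 CPM against 107, 52.9 and 88.9 CPM, overlapping groups with a log2 fold change of 0.36 (SE 0.31 and, from edgeR, an adjusted p = 0.94). Fibroblast clusters differed, with the nuclei of each genotype pooled. H2-D1 stood at 113 against 55.5 CPM in cluster 0 (127 R241E and 112 WT nuclei) and at 95.2 against 107 CPM in cluster 12 (161 and 64). In cluster 24 (30 and 15) it stood at 66.0 against 62.0 CPM. The part of the cluster mix in the class value was not tested. B2m in fibroblasts had 101 and 76.0 CPM against 42.6, 20.3 and 38.6 CPM (1.52, SE 0.37, edgeR adjusted p = 0.24), groups that did not overlap, as for 8.52% of all genes tested there, and was called without the count filter (0.0205, where 0.359% of all genes were called higher) or without R241E mouse 2 (0.0139). In mural cells H2-D1 had 183 and 115 CPM against 64.9, 53.8 and 87.4 CPM (1.13, SE 0.35), H2-K1 had 113 and 74.4 CPM against 12.98, 59.7 and 37.5 CPM (1.19, SE 0.44), and B2m had 101 and 108 CPM against 77.9, 29.9 and 24.97 CPM (1.44, SE 0.44). The groups did not overlap for any of the 3, as for 9.22% of all genes tested there, but none passed the adjustment (edgeR adjusted p 0.608 to 0.999), nor without the count filter, where 0.0118% of all genes were called higher. H2-K1 and B2m passed that filter in mural cells through the R241E libraries. Nlrc5 was too scarce to test in either class, at 6.90 and 6.16 CPM in R241E fibroblasts and 2.35 and 18.6 CPM in R241E mural cells.

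The genotype effect was then compared between 2 classes at a time, in fits with a term for each library. Against microglia, border-associated macrophages had a smaller effect for H2-D1 (log2 difference -1.59, SE 0.24, edgeR adjusted p = 4.55e-08), H2-K1 (-1.31, SE 0.27, edgeR adjusted p = 0.000279), B2m (-1.03, SE 0.27, edgeR adjusted p = 0.0233) and Nlrc5 (-2.20, SE 0.38, edgeR adjusted p = 3.28e-06), where 0.504% of all genes had a smaller effect. Fibroblasts had a smaller effect for H2-D1 (-2.75, SE 0.36, edgeR adjusted p = 3.12e-11) and H2-K1 (-1.92, SE 0.43, edgeR adjusted p = 0.0024), against 0.656% of all genes, and mural cells for H2-D1 (-1.99, SE 0.41, edgeR adjusted p = 0.00145), against 0.234%. The H2-D1 differences of border-associated macrophages and fibroblasts held whichever mouse was left out, whereas that of mural cells did not without R241E mouse 2 (0.0848) or WT mouse 3 (0.216). In border-associated macrophages the difference was not called for H2-K1 without R241E mouse 1 (0.146) or WT mouse 2 (0.0825), for Nlrc5 without WT mouse 1 (0.0823), or for B2m without any mouse but WT mouse 3 (0.143 to 0.431) or without the count filter (0.0874). That of H2-K1 in fibroblasts was not called without R241E mouse 2 (0.09), WT mouse 1 (0.163) or WT mouse 2 (0.109).

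No member's effect was called different between oligodendrocytes and microglia (0.72% of genes called in either direction), and 1 of the 10 had an unadjusted p under 0.05 with edgeR. Only edgeR was run for these differences. The difference was 1.60 for H2-D1 (SE 0.56, edgeR adjusted p = 0.264), 0.48 for H2-K1 (SE 0.59), 0.27 for B2m (SE 0.42) and 0.85 for Nlrc5 (SE 0.98), spreads that leave room for differences of either sign for the last 3. Nor was any called between astrocytes and microglia (1.01% of genes called, 3 members with an unadjusted p under 0.05), where H2-D1 differed by 0.22 (SE 0.54), B2m by 0.37 (SE 0.43), H2-K1 by -0.84 (SE 0.41) and Nlrc5 by -1.75 (SE 0.59). Between neurons and microglia none was called either (0.1% of genes, 3 members with an unadjusted p under 0.05), with -1.83 for H2-D1 (SE 0.41, edgeR adjusted p = 0.127) and -1.45 for B2m (SE 0.41, edgeR adjusted p = 0.247). Oligodendrocytes and neurons did differ for H2-D1, whose effect was larger in oligodendrocytes (3.61, SE 0.64, edgeR adjusted p = 0.0101), where 0.0768% of all genes had a larger effect. That call was lost without R241E mouse 1 (0.0909) or R241E mouse 2 (0.061). H2-K1 differed by 2.01 (SE 0.83, edgeR adjusted p = 0.632).

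**Figure D4:**
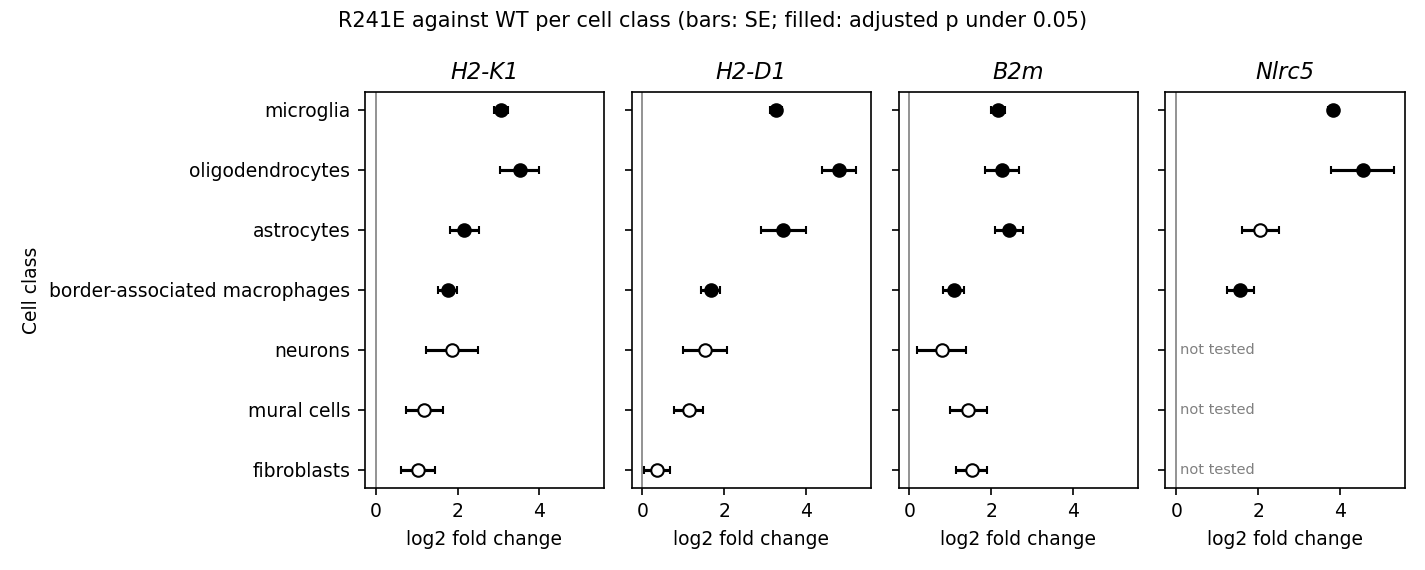
Log2 fold change of R241E over WT for H2-K1, H2-D1, B2m and Nlrc5 in the 7 classes tested, with bars for the SE and filled points for calls. The called points lie in microglia, oligodendrocytes, astrocytes and border-associated macrophages, from 1.08 (B2m, border-associated macrophages) to 4.79 (H2-D1, oligodendrocytes), and all points of neurons, mural cells and fibroblasts are open where a gene was tested.

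Levels set the classes in another order than fold changes. In WT mice mean H2-D1 was highest in border-associated macrophages (191 ± 64.8 CPM, SD, n = 3), followed by fibroblasts (82.8 ± 27.4), mural cells (68.7 ± 17.1) and microglia (59.2 ± 16.7). Below them came neurons (26.3 ± 22.7), astrocytes (5.84 ± 7.05) and oligodendrocytes (5.57 ± 5.01), and only the step from border-associated macrophages to fibroblasts was free of overlap between neighbours. In R241E mice microglia (586 ± 3.42 CPM, SD, n = 2) stood beside border-associated macrophages (601 ± 16.0), and oligodendrocytes (165 ± 0.253) came next, followed by mural cells (149 ± 47.9), fibroblasts (96.6 ± 11.7), astrocytes (74.6 ± 29.1) and neurons (67.6 ± 9.52). In the classes with too few nuclei for a test, lymphocytes had the highest H2-D1 of all, at 2850 and 2684 CPM in R241E mice and 3618, 2492 and 2676 CPM in WT mice, groups that overlapped. Monocytes or neutrophils had 1128 and 1915 against 1604, 1698 and 1669 CPM. The cluster of that name also had Igkc, Cd74 and H2-Aa among its top genes. Its mean log2 fold was 7.09 for the markers of its name and 5.47 for B lymphocyte markers, so the class may be mixed.

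**Figure D5:**
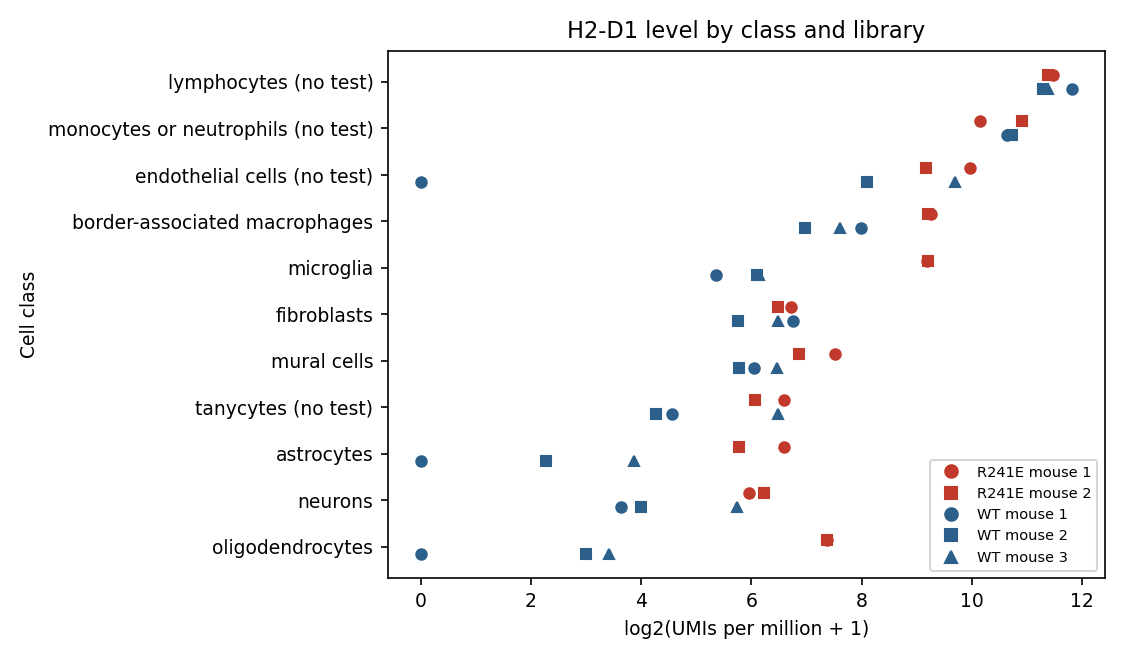
H2-D1 in 11 cell classes as log2(CPM + 1), with 1 point per library (red, R241E; blue, WT). Pituitary endocrine nuclei, which came almost all from 1 library, are not drawn. Lymphocytes and monocytes or neutrophils lie farthest to the right in both genotypes, with red and blue points overlapping in both. The class named monocytes or neutrophils also carried B lymphocyte markers. In oligodendrocytes the red points (165 CPM) lie far above the blue ones (0 to 9.70 CPM).

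Across the 35 combinations of 7 classes and 5 libraries, the genes whose levels most resembled the mean standardised level of the 10 members were Camk1d (Pearson r = 0.881), Ly6e (0.871), 4930599N23Rik (0.866), Nadk (0.863) and Tk2 (0.85), out of 5919 candidates. The points share libraries and classes, so these values are a description. Ly6e is an interferon-inducible surface protein.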

How the data were processed

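Single-nucleus RNA libraries of 5 mice were analysed. The authors aligned the reads to mm10 with Cell Ranger 7.0.0 and deposited 1 matrix of raw UMI counts per library, with no normalisation. The members and lists were chosen with earlier results of these data known, and the interferon list was the study's, chosen on these samples. The labels do not say which mice, if any, received the vehicle or inhibitor that the treatment text describes, and the study calls its controls both wild type and heterozygous, so the labels were followed.

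Nuclei with 200 to 4500 genes, at most 10000 UMIs and at most 5% mitochondrial UMIs were kept. Scanpy 1.11.5 clustered them (3000 variable genes, 30 principal components, 20 neighbours, Leiden resolution 1). Clusters were named from marker genes where at least 3 markers were detected. No doublet caller was run, and the upper limits and an alternative without nuclei holding 2 or more microglia-marker UMIs stood in for one. Counts were summed per library and class and tested with edgeR 4.0.16 (TMM, filterByExpr, quasi-likelihood, genotype as the only term) in R 4.3.3, with Benjamini-Hochberg adjustment over all genes of the class. The SE is the log2 fold change divided by the square root of F. Differences between classes came from fits of 2 classes with library, class and their interaction with genotype. limma 3.58.1 (voom) and DESeq2 1.42.0 were alternatives. Shares of nuclei were taken after thinning to 1000 UMIs, with 95% Clopper-Pearson intervals. Promoter windows and loci were RefSeq's for GRCm38.p6, the build of mm10, and the motifs were chosen after the windows had been read. Genes named outside the 10 members came from lists of partners or from the rule of the 5 highest correlations. A gene of the regulator list is not reported here, and no count over that list is given. The edgeR fit was tested on simulated counts with known changes.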

Additional observations from a re-analysis of the deposited data

Results flagged for a closer look

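The genotype effect of 8 gene and class pairs differed between classes by a test of the difference itself. Against microglia, the log2 effect in border-associated macrophages was lower by -1.59 for H2-D1, -1.31 for H2-K1, -1.03 for B2m and -2.20 for Nlrc5. In fibroblasts it was lower by -2.75 for H2-D1 and -1.92 for H2-K1, and in mural cells by -1.99 for H2-D1. The effect on H2-D1 was 3.61 higher in oligodendrocytes than in neurons.

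In the 5 classes with too few nuclei for a test there were 50 gene and class pairs. Both R241E libraries lay above all WT libraries in 7 of them, and in 3 of these the counting intervals of the pooled nuclei did not overlap. The share of all genes with such a separation was not computed in these classes, and in the classes tested it ran from 8.52% to 20.4%. Single libraries held as few as 7 endothelial, 3 lymphocyte and 12 tanycyte nuclei. B2m in endothelial cells stood at 848 CPM in the pooled R241E nuclei (95% Poisson interval 651 to 1085) and at 234 CPM in the pooled WT nuclei (131 to 387). B2m in lymphocytes stood at 2379 CPM (2227 to 2539) against 1655 CPM (1376 to 1973). H2-K1 in tanycytes stood at 96.0 CPM (74.4 to 122) against 34.1 CPM (12.5 to 74.2). In the same classes H2-D1 in lymphocytes and both heavy chains in endothelial cells had overlapping groups, and the intervals cover counting error only.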

How the results depend on the processing

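Of 75 log2 fold changes of members, 36 were called. Of these 16 kept their call under every alternative that was run, 20 lost it under at least 1, and 0 changed sign. The 16 were those of 8 members in microglia (all but Tapbp and Psmb10), H2-K1 and H2-D1 in border-associated macrophages, H2-K1, H2-D1, B2m and Nlrc5 in microglia without interferon-list UMIs, and the H2-D1 differences of border-associated macrophages and fibroblasts from microglia. The cause of the lost calls was not tested, apart from fewer libraries or nuclei where these were left out.

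With DESeq2, 2 members were called in border-associated macrophages, and the genes called were 7 there, 20 in astrocytes, 2 in fibroblasts, 89 in neurons and 9 in oligodendrocytes. With limma-voom 0 members were called in astrocytes and oligodendrocytes, and the genes called were 0 in astrocytes, fibroblasts and neurons and 4 in oligodendrocytes. Without the count filter 1 member was called in fibroblasts, 2 in neurons and 1 in neurons against microglia. The genes called were then 264 in astrocytes, 70 in border-associated macrophages, 91 in fibroblasts, 3 in mural cells, 515 in neurons, 47 in oligodendrocytes, 215 in neurons against microglia and 52 in oligodendrocytes against neurons. Without nuclei holding microglia-marker UMIs 1 member was called in astrocytes. The genes called were then 0 in fibroblasts and neurons, 1 in mural cells, 6 in oligodendrocytes, 85 in astrocytes, 66 in neurons and 42 in oligodendrocytes against microglia, and 30 in oligodendrocytes against neurons. With upper limits on nuclei lifted 0 genes were called in neurons, with the members and interferon list left out of the clustering 3 members in oligodendrocytes (B2m lost), and with at most 1 interferon-list UMI 681 genes in microglia.

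The replicate numbers are shared between genotypes, but their deviations correlated at only 0.0994 and -0.0178, so they do not pair the mice. With the replicate block 1 member was called in neurons (H2-D1), 4 in astrocytes (Nlrc5 added) and 3 in border-associated macrophages (B2m lost), and the genes called were 2108 in microglia, 743 in microglia without interferon-list UMIs, 178 in astrocytes, 66 in border-associated macrophages, 0 in fibroblasts, 2 in mural cells, 102 in neurons and 72 in oligodendrocytes.

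R241E minus WT shares, in percentage points, rose with depth. At 1500 UMIs and without thinning they were 36.9 and 50.8 for H2-K1, 41.1 and 51.8 for H2-D1, 31.0 and 36.4 for B2m and 21.1 and 30.1 for Nlrc5 in microglia, and 23.3 and 37.2 for H2-D1 in oligodendrocytes.

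Signs turned only for values that were not called. Without the filter Tapbp in microglia without interferon-list UMIs was -0.0031. Without marker-holding nuclei the differences from microglia were -0.11 for H2-D1 and -0.18 for B2m in astrocytes and 0.23 for B2m in mural cells. Tapbp in fibroblasts was -0.26 with the replicate block, and Tap2 in astrocytes was 0.36 with upper limits lifted.

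With 1 mouse left out, in which case a lone R241E mouse is assumed to vary like the WT mice, members called were 8 to 10 in microglia, 0 to 3 in astrocytes, 2 to 3 in border-associated macrophages, 0 to 1 in fibroblasts, 1 to 4 in oligodendrocytes and 4 to 7 in microglia without interferon-list UMIs. Against microglia they were 2 to 4 for border-associated macrophages, 1 to 2 for fibroblasts, 0 to 1 for mural cells and 0 to 1 for neurons, and for oligodendrocytes against neurons 0 to 1. Genes called were 536 to 1541 in microglia, 1 to 108 in astrocytes, 6 to 44 in border-associated macrophages, 0 to 100 in fibroblasts, 0 to 2 in mural cells, 0 to 3 in neurons, 6 to 45 in oligodendrocytes and 65 to 602 in microglia without interferon-list UMIs. Against microglia they were 11 to 169 for astrocytes, 31 to 78 for border-associated macrophages, 42 to 93 for fibroblasts, 9 to 35 for mural cells, 0 to 93 for neurons and 2 to 73 for oligodendrocytes, and for oligodendrocytes against neurons 6 to 77. Signs turned for Tap2 in astrocytes (-0.11 to 0.067), Tapbp in fibroblasts (-0.24 to 0.40) and Tapbp in microglia without interferon-list UMIs (-0.13 to 0.24). Among differences from microglia they turned for H2-D1 (-0.35 to 2.05) and B2m (-0.038 to 0.68) in astrocytes, Psmb8 (-0.24 to 0.51) and Psmb9 (-0.42 to 0.16) in border-associated macrophages, B2m in mural cells (-1.04 to 0.0055), Tapbp in neurons (-0.33 to 1.05) and B2m in oligodendrocytes (-0.23 to 1.18).

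An alternative chosen after seeing the data left out the 26 nuclei whose barcodes occurred in more than 1 library, and the number of members called was the same in all 7 classes. The mice number 2 and 3, so p-values rest on few animals.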
